A study of Homo sapiens with 24 samples.

Results

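Cyclic nucleotide phosphodiesterases are the enzymes that hydrolyse the second messengers cAMP and cGMP. This report describes 10 of their genes in human aneuploid cell lines: PDE2A, PDE3A, PDE3B, PDE4A, PDE4B, PDE4C, PDE4D, PDE7A, PDE8A and PDE8B. The genes were chosen by name, and the family was taken up because PDE4B and PDE2A stood out in the authors' own comparisons of single aneuploid lines with their parental lines, which are not used here. They are 10 of 16742 genes with an entry in any of the 4 expression tables. All 10 had an entry in both HCT116 tables and 9 in both RPE1 tables, and PDE3B was the gene without an entry there.

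The mRNA of 8 lines was sequenced, with 3 libraries of each line and 24 in all. HCT116 is a near diploid colon carcinoma line with a modal chromosome number of 45, and RPE1 is a near diploid retinal pigment epithelium line made permanent with hTERT, with a modal chromosome number of 46. The aneuploid line HCT116 5/4 carried 4 copies of chromosome 5 and was set against HCT116. HCT116* 8/3 c7, which is clone 7 of a line with 3 copies of chromosome 8, was set against HCT116*. RPE1 5/3 12/3 carried 3 copies of each of chromosomes 5 and 12 and was set against RPE1, and RPE1* 21/3 carried 3 copies of chromosome 21 and was set against RPE1*. The asterisk marks lines, aneuploid and parental alike, that express the histone H2B joined to GFP. HCT116 5/4 was obtained from another laboratory, the other aneuploid lines were made by microcell transfer of a chromosome, and the gain of chromosome 12 was spontaneous. The paper's list of cell lines gives HCT116 the same source as HCT116 5/4, whereas its methods name a culture collection. By that list HCT116* was made from HCT116 of the collection, so the parental stocks of the HCT116 tables may differ. Each aneuploid line is a derived cell line, so its 3 libraries do not sample independent gains of a chromosome.

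Each table holds 1 usable value per gene, the authors' mean normalised count over the 6 libraries of an aneuploid line and its parental line. Such a value cannot say how the 2 lines of a table differ, has no error of its own, and allows no test. With 3 libraries of each line, the mean of either line can be at most 2 times the value of its table. The depth of the single libraries is unknown, and the means summed to between 18889290 and 23011803 per table. The tables were normalised separately, so values set across tables were first divided by a scaling factor of 0.825 to 1.11, the median ratio over 11939 shared genes, and they are called scaled means. The difference between the 2 tables of the same cell type stands in for the spread. It also includes their differences in gained chromosome, in H2B-GFP and, for HCT116, possibly in parental stock, which cannot be told apart. Over 12963 genes the median difference, without its sign, was 0.21 on the log2 scale between the HCT116 tables and 0.17 between the RPE1 tables. In bulk RNA, fewer cells of a type and less RNA per cell cannot be told apart.

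The labelled cell types were set against markers. EPCAM and CDH1, defining genes of epithelial cells, had means of 4192 and 1685 in the HCT116 5/4 table, and in the RPE1 tables CDH1 had no entry and EPCAM had 4.77 in 1 of them. Of 8 markers of colon epithelium, 5 reached a mean of 10 in each HCT116 table and 2 in each RPE1 table, whereas VIL1 and CDX1 had no entry. The 2 in RPE1 were the keratin genes KRT8, at 19618 and 16721, and KRT18, at 12481 and 13422. Their means in the HCT116 tables were 63210 and 59668 for KRT8 and 28098 and 20665 for KRT18. Of 6 markers of retinal pigment epithelium, 5 reached a mean of 10 in the RPE1 5/3 12/3 table and 3 in each other table. MITF was high in the RPE1 tables, at 1439 and 1124. RPE65, the enzyme of the visual cycle, had only 10.4 and 4.58 there against 287 and 194 in the HCT116 tables, and TYR had no entry. PMEL was also lower in the RPE1 tables, at 17.8 and 14.8 against 97.1 and 137. BEST1 was higher, at 42.7 and 41.3 against 7.50 and 2.62. RLBP1 had 32.4 and 4.77 in the RPE1 tables and no entry in the HCT116 tables. The RPE1 tables were rich in mesenchymal transcripts, with means of 368294 and 373337 for fibronectin (FN1) against 1210 and 677 in the HCT116 tables. The contrast between the HCT116 and RPE1 tables below is therefore one between 2 very different cell types, and the part of any single difference between them, such as these markers, in the phosphodiesterase levels was not tested.

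Cells make cAMP with adenylyl cyclases and cGMP with guanylyl cyclases, and phosphodiesterases are the main way in which either signal is ended. The subfamilies differ in substrate and control. PDE4, PDE7 and PDE8 are specific for cAMP, PDE3 hydrolyses cAMP and is inhibited by cGMP, and PDE2A hydrolyses both messengers and is stimulated by cGMP. PDE4 enzymes are the targets of rolipram and related anti-inflammatory drugs, they are bound by anchoring proteins, and their genes make many isoforms from separate promoters.

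PDE4B and PDE4A were the most abundant phosphodiesterase transcripts of the HCT116 tables and were scarce in the RPE1 tables. The mean normalised count of PDE4B was 2661 in the table of HCT116 5/4, 6035 in that of HCT116* 8/3 c7, 77.5 in that of RPE1 5/3 12/3 and 66.8 in that of RPE1* 21/3. Both HCT116 values thus lay far above both RPE1 values, and the H2B-GFP table was the higher of the HCT116 tables. On the scale common to all tables PDE4B was 46.6-fold lower in the RPE1 tables (log2 ratio -5.54), compared with a difference of 2.19-fold between the HCT116 tables and 1.06-fold between the RPE1 tables. PDE4B encodes the isoenzyme best known from leukocytes and brain, and the gene lies on chromosome 1 (GRCh37, chr1:66258197-66840262, plus strand).

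PDE4A, on chromosome 19 (chr19:10527449-10580306, plus strand), had mean normalised counts of 1454 and 1534 in the HCT116 tables and of 19.2 and 12.1 in the RPE1 tables. The HCT116 values were nearly equal, and the RPE1 values were close to the lowest that were counted as present here, a mean of 10. This was the widest gap of the 9 genes that could be compared, with scaled means 82.0-fold lower in the RPE1 tables (log2 ratio -6.36). The tables of the same cell type differed by 1.02-fold for HCT116 and 1.29-fold for RPE1. Among all 12963 genes compared, a ratio as low as that of PDE4A was rare, at percentile 0.355, and PDE4B stood at percentile 0.679.

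**Figure D1:**
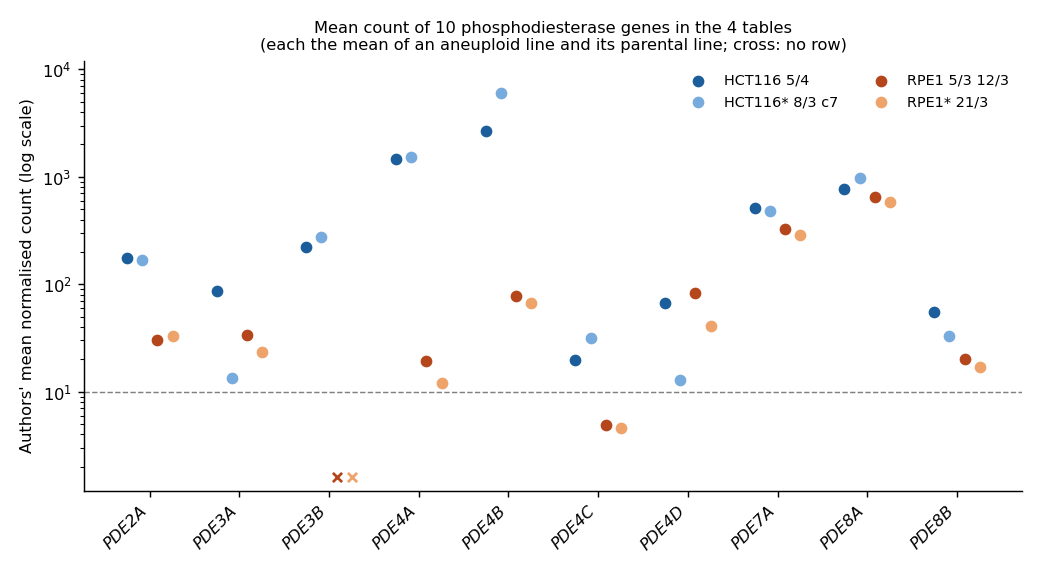
The authors' mean normalised count (log axis) of each of the 10 genes in the 4 tables, with 1 point per table, a cross for a gene without an entry, and a dashed line at a mean of 10. PDE4A and PDE4B lie at 1454 or more in both HCT116 tables and at 77.5 or less in both RPE1 tables, whereas PDE7A and PDE8A differ little.

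PDE4C and PDE4D, the other two PDE4 genes, were minor transcripts. PDE4C, also on chromosome 19 (chr19:18318775-18359010, minus strand), had mean counts of 19.8 and 31.5 in the HCT116 tables and of 4.91 and 4.63 in the RPE1 tables, where it was under the minimum of 10. Its groups of values did not overlap, with a fold of 4.38 (log2 ratio -2.13), but at such low means few reads stand behind the ratio. A predicted protein-coding gene on the same strand, which has no entry under its identifier, shares 73.8% of the exon bases of PDE4C in the annotation used here, so the count may hold reads of both.

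PDE4D showed the opposite order in part of the data. Its mean counts were 67.0 for HCT116 5/4, 12.8 for HCT116* 8/3 c7, 83.6 for RPE1 5/3 12/3 and 41.0 for RPE1* 21/3. The first HCT116 value lay between the 2 RPE1 values, so the cell types overlapped, and only the H2B-GFP table of HCT116 stood low. The log2 ratio of 1.26 between RPE1 and HCT116 tables was smaller than the difference of 5.44-fold (log2 2.44) between the HCT116 tables. PDE4D lies on chromosome 5 (chr5:58264865-59817947, minus strand), which was gained in HCT116 5/4 and in RPE1 5/3 12/3, and in each cell type the table that includes the chromosome 5 gain had the higher value. In both cell types that table is also the one without H2B-GFP, so the gain and the tag cannot be told apart. The pooled means do not show whether the aneuploid or the parental line gave these levels. The limit of 2 does set a bound: both lines of the HCT116* 8/3 c7 table had means of at most 25.5 for PDE4D, and at least 1 line of the HCT116 5/4 table had 67.0 or more.

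Start windows are shown for the 3 PDE4 genes with higher values in the HCT116 tables. RefSeq windows of 300 bases, from 250 before to 50 after an annotated start (GRCh38.p14), numbered 32 for 8 of the 10 genes. PDE4D had 8, PDE4B 6, PDE4A 5 and PDE4C 4, while PDE8B also had 4, PDE8A 3, and PDE2A and PDE3A 1 each, compared with a median of 1 over 27305 genes, of which 2.07% had at least 4. Of the windows of each gene, the one with the most matches to TGACG is printed, and the most upstream one where windows tied. Capitals mark TGACG on either strand (CGTCA), the core of the cAMP response element bound by CREB, and the GC box GGGCGG on either strand (CCGCCC). The PDE4A window is chr19:10416523-10416822 on the plus strand, the PDE4B window chr1:65792260-65792559 on the plus strand, and the PDE4C window chr19:18224444-18224743 on the minus strand.
PDE4A: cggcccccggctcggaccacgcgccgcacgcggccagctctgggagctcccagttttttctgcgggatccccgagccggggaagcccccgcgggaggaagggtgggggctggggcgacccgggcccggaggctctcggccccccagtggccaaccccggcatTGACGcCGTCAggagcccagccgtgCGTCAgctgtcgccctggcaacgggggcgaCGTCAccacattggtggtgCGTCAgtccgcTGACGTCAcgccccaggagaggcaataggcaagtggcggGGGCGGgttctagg
PDE4B: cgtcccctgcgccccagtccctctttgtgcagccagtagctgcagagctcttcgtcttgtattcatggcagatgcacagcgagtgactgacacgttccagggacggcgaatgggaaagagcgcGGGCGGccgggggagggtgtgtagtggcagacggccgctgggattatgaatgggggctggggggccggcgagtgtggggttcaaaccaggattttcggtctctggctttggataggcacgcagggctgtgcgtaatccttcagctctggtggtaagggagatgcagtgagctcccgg
PDE4C: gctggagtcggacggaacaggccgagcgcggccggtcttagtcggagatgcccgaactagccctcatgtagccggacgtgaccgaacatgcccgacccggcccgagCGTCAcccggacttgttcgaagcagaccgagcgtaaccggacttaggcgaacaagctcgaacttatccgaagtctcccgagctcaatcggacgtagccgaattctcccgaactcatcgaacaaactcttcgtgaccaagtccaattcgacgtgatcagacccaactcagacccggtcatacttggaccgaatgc

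The PDE4A window held 7 matches to TGACG, as many as only 4 of 35116 windows of all genes reached. The 2 matches nearest to the start overlap and form the full palindrome TGACGTCA, which begins 3 bases before the annotated start and was present in 1.85% of all windows. It was the only full element in the 32 windows. At least 1 match to TGACG was found in 3 of the 32 windows, with 1 each in PDE4A, PDE4C and PDE4D, against 24.6% of all windows, and a GC box in 11 of 32, against 45.0%. The PDE4B window holds 1 GC box and no TGACG, and none of the 6 PDE4B windows held TGACG. These matches describe letters in the windows only, and the files do not show which of the starts were used in these cells.

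PDE2A, on chromosome 11 (chr11:72287185-72385635, minus strand), had mean counts of 174.5 and 168.4 in the HCT116 tables and of 30.1 and 33.2 in the RPE1 tables. Both HCT116 values were alike and lay above both RPE1 values. The scaled means were 4.54-fold lower in the RPE1 tables (log2 ratio -2.18), and the lowest HCT116 value was 3.77 times the highest RPE1 value. The HCT116 tables differed by 1.07-fold and the RPE1 tables by 1.35-fold, so the gap was wider than the difference within either cell type. Its single start window held none of the motifs searched.

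The PDE3 genes differed from each other. PDE3B, known from adipocytes and liver, where it acts downstream of insulin, had mean counts of 221 and 278 in the HCT116 tables and no entry in either RPE1 table. A missing entry gives no level, since the reason for it is not known. Of 10905 genes that reached a mean of 100 in both HCT116 tables, 316 (2.90%) had no entry in either RPE1 table. PDE3B lies on chromosome 11 (chr11:14665350-14893590, plus strand).

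PDE3A, best known from heart muscle and platelets, had mean counts of 87.1 for HCT116 5/4, 13.4 for HCT116* 8/3 c7, 34.0 for RPE1 5/3 12/3 and 23.2 for RPE1* 21/3. Like PDE4D it was high in 1 HCT116 table and low in the other, and both RPE1 values lay between them. The difference of 6.73-fold between the HCT116 tables exceeded that between the cell types (log2 ratio -0.02). Only 5.01% of all genes compared were over 2-fold apart between the HCT116 tables, and PDE3A, PDE4D and PDE4B were the 3 that were so among these 9. The gene lies on chromosome 12 (chr12:20521471-20841517, plus strand), gained in RPE1 5/3 12/3, and the 2 RPE1 tables differed by 1.19-fold.

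PDE8A and PDE7A were present at similar levels in all 4 tables. PDE8A, an enzyme with very high affinity for cAMP, had mean counts of 764, 972, 650 and 585 in the order in which the tables were introduced. After scaling, the lowest HCT116 value and the highest RPE1 value were 710.4 and 708.3, so the levels of the cell types touched, and the ratio was small (log2 -0.22). PDE8A is on chromosome 15 (chr15:85523671-85682376, plus strand).

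PDE7A, known from T cells, had mean counts of 509, 476, 326 and 289 in the same order. The RPE1 values were lower than the HCT116 values, with a scaled fold of 1.34 (log2 ratio -0.42), compared with 1.11-fold and 1.09-fold within the cell types. PDE7A lies on chromosome 8 (chr8:66626569-66754557, minus strand), gained in HCT116* 8/3 c7, and the HCT116* 8/3 c7 table was not the higher of the HCT116 tables. It shares 116 exon bases with MTFR1 on the opposite strand.

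PDE8B, the paralogue known from the adrenal cortex and thyroid, was low throughout, with mean counts of 55.6 and 33.4 in the HCT116 tables and of 20.0 and 16.9 in the RPE1 tables. The RPE1 values were 1.96-fold lower after scaling (log2 ratio -0.97), a gap close to the 1.72-fold between the HCT116 tables. Like PDE4D it lies on chromosome 5 (chr5:76506274-76724081, plus strand), and the table that includes the chromosome 5 gain was the higher by 1.72-fold in HCT116, while the 2 RPE1 tables differed by 1.04-fold. Here too, the gain and the absence of H2B-GFP fall on the same tables and cannot be told apart. PDE8B also overlaps other genes. It shares 6.85% of its exon bases with WDR41 on the opposite strand, and 51.6% with a predicted gene on its own strand that has no entry under its identifier, so its count is uncertain in this respect.

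Set together, 2 of the 9 genes with an entry in all tables, PDE4A and PDE4B, had both RPE1 values over 4 times below both HCT116 values, a gap that 607 of 12963 genes (4.68%) showed. None of the 9 lay over 4 times higher in the RPE1 tables, compared with 642 genes (4.95%). The fold of 4 was a round limit, and with the means as deposited, or with the tables scaled to the same total, PDE2A and PDE4C, whose lowest HCT116 values were 3.77 and 3.29 times their highest RPE1 values, passed it as well, which made the count 4. The arithmetic limit of 2 gave 4 genes, PDE2A, PDE4A, PDE4B and PDE4C, under each of the 3 scalings. Of all genes 11.6% passed it with the median ratio scaling, and this share was not computed for the other scalings. PDE4C entered this comparison only through the HCT116 tables, where it reached a mean of 10. For these 4, at least 1 line of each HCT116 table had more of the transcript than any of the 4 RPE1 lines, on the scaled means. In the other direction the limit of 2 was passed by 0 of 9, against 11.7% of all genes. Any gap at all, without overlap, was seen for 7 of 9 genes with the RPE1 values lower, against 40.9% of all genes, and for 0 of 9 with them higher, against 39.2%. Of the 7, PDE8A is included by scaled means of 710.4 and 708.3 only. These shares depend on the scaling: with the means as deposited 724 of all genes were over 4 times lower and 527 higher, with the tables scaled to the same total 778 and 496, and the median log2 ratio of all genes moved from -0.03 to -0.28 and -0.37. The counts of 7 of 9 without overlap were the same under all 3 scalings, but those over all genes were not. With the median ratio scaling 5303 of all genes were lower in RPE1 without overlap and 5076 higher. With the means as deposited these counts were 6448 and 3488, and with the tables scaled to the same total 7377 and 3360. The median log2 ratio of the 9 genes was -0.97 with the median ratio scaling. The 9 genes are few, were chosen with earlier results known, and include 4 paralogues of 1 subfamily, so these shares are descriptions.

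**Figure D2:**
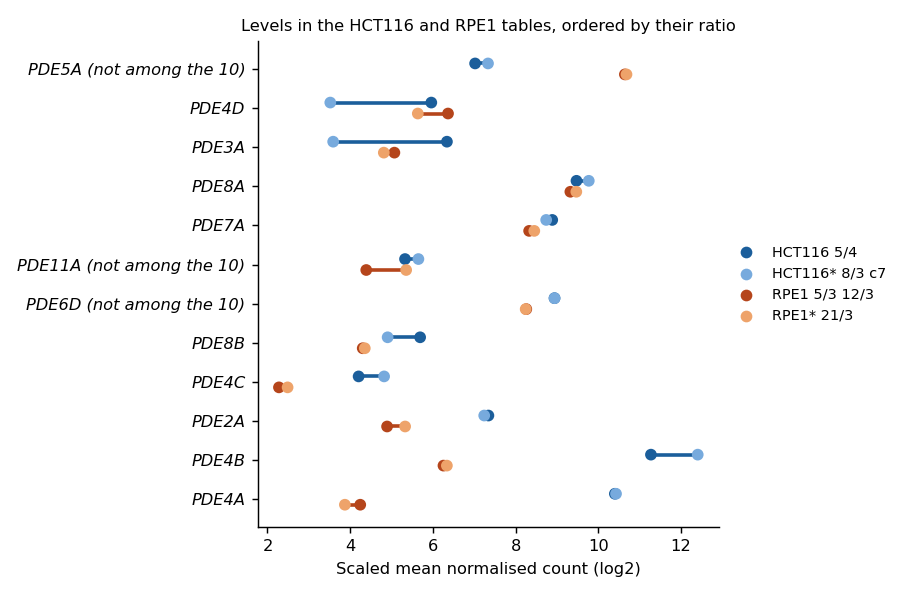
Scaled mean normalised count (log2) of the 9 listed genes with an entry in all tables and of PDE5A, PDE6D and PDE11A for comparison, with 1 point per table and a bar joining the 2 tables of a cell type. The bars of PDE4A, PDE4B, PDE4C and PDE2A are far apart with RPE1 lower, those of PDE3A and PDE4D overlap, and PDE5A is 11.2-fold higher in the RPE1 tables.

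Levels of different genes were compared per kb of exons. Per kb, PDE4B led in both HCT116 tables with 277 and 607 scaled counts, and PDE4A followed with 199.9 and 203.8. PDE8A led in both RPE1 tables with 80.1 and 88.5, and PDE7A followed with 30.3 and 33.0. PDE4B came next there, at 8.56 and 9.06. The order of the first 4 genes in the HCT116 tables, PDE4B, PDE4A, PDE8A and PDE7A, and of the first 2 in the RPE1 tables was the same whether all exons, the longest transcript or no length was used. Below these the neighbours changed places between the tables of a cell type: PDE2A (22.6 and 21.1) and PDE3B (17.7 and 21.5) in HCT116, and PDE2A (4.14 and 5.59), PDE8B (3.53 and 3.65) and PDE4D (5.05 and 3.05) in RPE1. Their order is therefore within the spread.

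The PDE4 genes made up 71.9% and 80.4% of the summed level per kb of the listed genes in the HCT116 tables, and 12.4% and 10.2% in the RPE1 tables. PDE7 and PDE8 genes made up 21.2% and 15.3% in HCT116 and 82.8% and 84.6% in RPE1. The sum itself was 672 and 1014 scaled counts per kb in the HCT116 tables and 138 and 148 in the RPE1 tables. A gene without an entry added nothing, so PDE3B counted in the HCT116 sums only. Ranked among the genes of a table whose mean reached 10, the level of PDE4B per kb stood at percentiles 77.9 and 90.9 in HCT116 and at 8.97 and 8.35 in RPE1. PDE8A stood between percentiles 41.2 and 51.5 in all 4 tables, and PDE3A, PDE4C, PDE4D and PDE8B were under percentile 10 in all 4. All 10 genes reached a mean of 10 in both HCT116 tables, and 8 of the 9 with an entry did so in both RPE1 tables. Most genes with an entry did so: 13887 of 15148 for HCT116 5/4 and 13869 of 15610 for HCT116* 8/3 c7. In the RPE1 tables these were 13278 of 14510 for RPE1 5/3 12/3 and 13101 of 14292 for RPE1* 21/3.

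Of 13 other phosphodiesterase genes on the list, 4 had an entry in all tables (PDE5A, PDE6A, PDE6D and PDE11A), and 1 of them, PDE5A, passed a fold of 4. PDE5A, the cGMP-specific enzyme inhibited by sildenafil, had mean counts of 140 and 179 in the HCT116 tables and of 1621 and 1356 in the RPE1 tables, which is 11.2-fold higher after scaling (log2 ratio 3.49). PDE6D was 1.61-fold lower in the RPE1 tables, and the values of PDE11A overlapped. PDE6A was 1.80-fold higher there, but its means were under 10 in every table, so few reads stand behind that ratio. PDE1C, an enzyme activated by calcium and calmodulin, had 1502 and 2384 in the RPE1 tables, 4.83 in the HCT116 5/4 table and no entry in the other. PDE9A, a cGMP-specific enzyme named here after its values were seen, had 644 and 622 in the HCT116 tables and no entry in the RPE1 tables. Per kb, PDE6D was the leading gene of this list in the HCT116 tables (174.1 and 174.2), PDE5A in the RPE1 5/3 12/3 table (166.8) and PDE1C in the RPE1* 21/3 table (204.3). PDE6D is named after the photoreceptor enzyme but acts as a carrier of prenylated proteins, and it was left out of sums. The other PDE6 genes of the list stayed in, whether or not they encode a catalytic subunit, so the sums are over genes by name and not over enzymes alone. PDE6G had 26.4 and 25.1 per kb in the RPE1 tables, 1.77 in the HCT116* 8/3 c7 table and no entry for HCT116 5/4. The 10 genes held 83.7% and 88.7% of the level per kb summed over them and the remaining genes of this list in the HCT116 tables and 30.5% and 26.6% in the RPE1 tables. Genes without an entry added nothing, such as PDE3B and PDE9A in the RPE1 tables and PDE1A in the HCT116 tables. PDE7B, the paralogue of PDE7A, was not in the list or the sums and was also named after its values were seen, with mean counts of 32.3, 25.8, 153 and 28.8 in the order of the tables given above. It was high in the RPE1 5/3 12/3 table only.

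**Figure D3:**
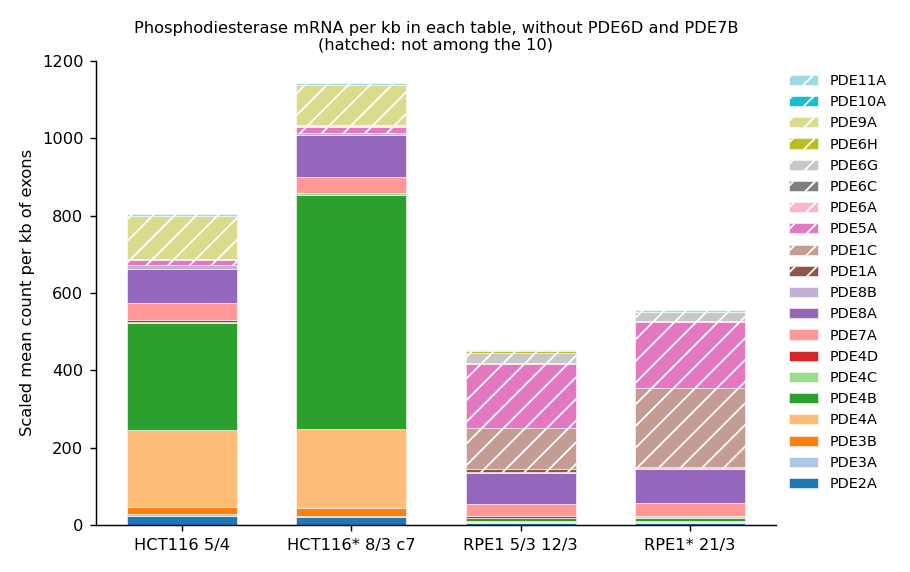
Stacked bars of the scaled mean count per kb of exons for the 10 genes and the further phosphodiesterase genes on the list with an entry, without PDE6D and PDE7B, for the 4 tables, with hatching for genes outside the 10. PDE4B and PDE4A fill most of the HCT116 bars, and PDE1C, PDE5A and PDE8A most of the RPE1 bars.

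Further genes of cyclic nucleotide signalling were taken from lists of adenylyl and guanylyl cyclases, G protein subunits, effectors, anchoring proteins, transcription factors and genes known to be induced by cAMP. With the other phosphodiesterases these lists hold 73 genes, of which 51, 51, 54 and 53 reached a mean of 10 in the 4 tables. The genes of the lists with an entry numbered 58, 58, 59 and 57, and the same counts over all genes are given above. Of 51 with an entry in all tables, 50 reached a mean of 10 in at least 1. Of these, 6 had both RPE1 values over 4 times below both HCT116 values and 4 had them over 4 times above, compared with 4.68% and 4.95% of all genes. Values without overlap were lower in RPE1 for 17 and higher for 21, compared with 40.9% and 39.2% of all genes, a split that turned to 22 and 12 with the means as deposited and to 28 and 11 with the tables scaled to the same total.

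Among the cyclases, ADCY7 was lower in the RPE1 tables, with means of 807 and 1007 in HCT116 and 115.0 and 140.9 in RPE1 (5.92-fold). Per kb, ADCY3 was the leading adenylyl cyclase in the HCT116 tables and ADCY6 in the RPE1 tables, where its means were 2238 and 1841. Of the guanylyl cyclases, which make cGMP, the natriuretic peptide receptor NPR2 led in the HCT116 tables, with 154.9 and 234.6. The soluble cyclase subunit GUCY1B3 led in the RPE1 tables, with 124.5 and 86.5, and had no entry in the HCT116 tables. GNAL, an alpha subunit that stimulates adenylyl cyclase, had means of 254 and 195 in HCT116 and 13.3 and 11.6 in RPE1 (14.9-fold lower). The stimulating subunit gene GNAS differed little, with a log2 ratio of 0.09. GNAS led its list per kb in the HCT116* 8/3 c7 table, and the inhibitory subunit gene GNAI2 in the other 3 tables. Without division by length GNAS had the higher mean in every table, at 14398 or more against 11143 or less for GNAI2. Which of them led therefore depends on the exon length used, and no other length was tried for the genes of these lists.

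Among the effectors, the protein kinase A inhibitor PKIA had means of 132 and 148 in HCT116 and 1004 and 839 in RPE1 (7.85-fold higher). The regulatory subunit gene PRKAR1A of protein kinase A led this list per kb in 3 tables and differed little (log2 ratio -0.20). The catalytic subunit gene PRKACB led per kb in the HCT116* 8/3 c7 table, with a mean of 6023. Without division by length PRKAR1A had the higher mean there, 9560, so this lead depends on the exon length used. AKAP12, an anchoring protein of protein kinase A, led its list in every table, with means of 34543 and 86905 in HCT116 and of 2808 and 2530 in RPE1 (17.2-fold lower). As with PDE4B, the H2B-GFP table was the higher of the HCT116 tables, by 2.43-fold. AKAP5 was low in HCT116, at 20.2 and 23.9, and 7.41-fold higher in RPE1, at 145.9 and 126.8. None of the 6 transcription factor and coactivator genes passed a fold of 4 in either direction. CRTC2, a coactivator of CREB, led per kb in the HCT116 tables and ATF1 in the RPE1 tables.

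Of 7 genes known to be induced by cAMP, 3 were over 4 times lower and 1 was over 4 times higher in both RPE1 tables, beside 4.68% and 4.95% of all genes. The nuclear receptor genes NR4A1 and NR4A2 were 12.9-fold and 17.4-fold lower, and the clock gene PER1 was 5.04-fold lower. NR4A1 had means of 829 and 3708 in the HCT116 tables and of 93.5 and 137.5 in the RPE1 tables. The kinase gene SIK1 had means of 371 and 953 in HCT116 and 4334 and 4850 in RPE1, 9.22-fold higher. These genes also answer to serum and stress, and the files hold no measure of cAMP. Per kb, FOS led this list in the HCT116 tables, SIK1 in the RPE1 5/3 12/3 table and DUSP1 in the RPE1* 21/3 table.

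**Figure D4:**
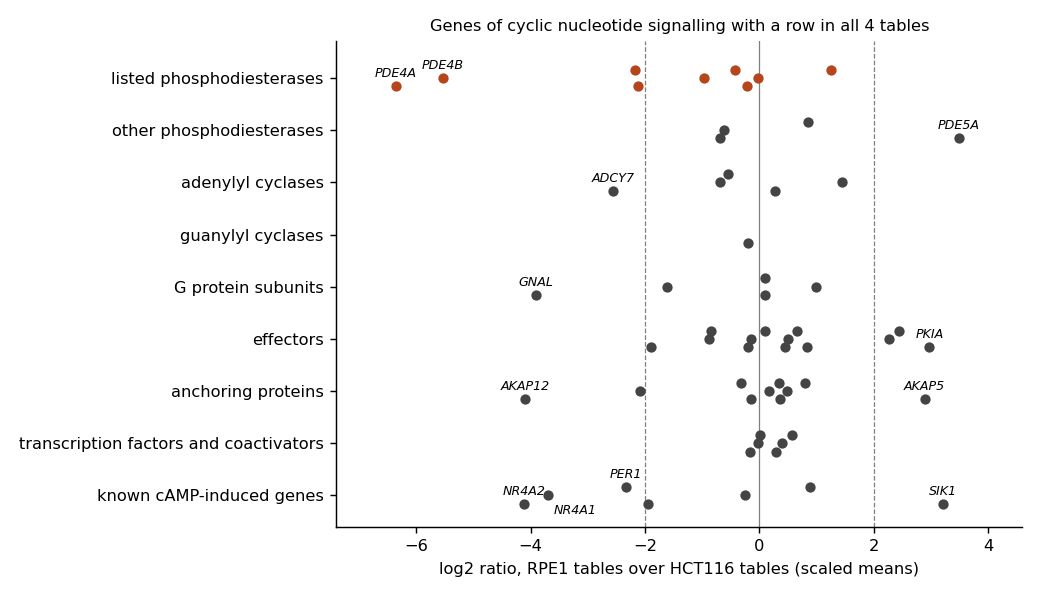
The log2 ratio of RPE1 over HCT116 tables (scaled means) for the listed phosphodiesterases and for 51 further genes with an entry in all tables, with 1 point per gene and dashed lines at a fold of 4. Genes named in the plot have both RPE1 values over 4 times above or below both HCT116 values.

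The genes whose scaled log2 levels over the 4 tables lay nearest to those of PDE4B and PDE2A, each centred on its own mean, were searched for among 12954 genes. With only 4 values per gene this is a description of cell type and table. For PDE4B they were KRTCAP3 (root mean square difference 0.07 on the log2 scale), TMC4 (0.19) and C8orf47 (0.20). All were higher in the H2B-GFP table of HCT116 than in the other, as PDE4B was, a direction the search itself selects for. In the RPE1 tables KRTCAP3 had means of 6.91 and 5.97 and C8orf47 of 5.95 and 4.36, below the minimum counted as present. Both genes thus entered the search through the HCT116 tables only, and few reads stand behind their RPE1 values. For PDE2A the nearest genes were CLCN2 (0.02), ATP6AP1L (0.03) and SLC25A27 (0.05). SLC25A27 was below that minimum in the RPE1 5/3 12/3 table, at 9.53. The nearest listed gene was PDE4A for PDE4B (0.59) and PDE4C for PDE2A (0.27).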

How the data were processed

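The mRNA was sequenced by the authors in 24 libraries. Per the paper's methods they trimmed adapters with cutadapt, mapped reads to hg19 with TopHat2 2.0.10 keeping 1 location per read, counted exons of RefSeq genes with featureCounts 1.4.3, and ran DESeq2 (version not given in the sources used here). No strand setting is named. For every gene the deposited signal is the authors' mean of size-factor normalised counts over the 6 libraries of an aneuploid line and its parental line, set separately in each of 4 tables. The other columns hold the authors' own comparison of the 2 lines (log2 fold change, standard error, statistic and p-values) and were not used, so no aneuploid line was compared with its parental line. Values of single libraries were not analysed here.

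From these means, levels were scaled by the median ratio over genes whose mean reached 10 in all tables, divided by the union of exons in kb (GENCODE annotation, GRCh37, matched by symbol or by an older symbol, for 94.7% to 95.2% of the genes of a table), and ranked among genes that reached 10 in a table. The scaling step was tested on simulated data in which few genes differed, as many raised as lowered. It therefore does not show how the scaling fares where differences are broad or lopsided. Ratios were taken between geometric means of the 2 tables of each cell type. Named genes were the 10 members, of each pathway list the gene with the highest level per kb in each table and those past a fold of 4, and the 3 genes nearest in pattern to PDE4B and PDE2A. Lengths other than the union of exons were tried for the 10 members only. PDE9A and PDE7B were named outside this rule. The members and lists were chosen with earlier results of these data known. The limit of 2 was added after the values were seen. Start windows came from RefSeq (GRCh38.p14), with none for PDE3B and PDE7A. Analyses used Python 3.11.15, pandas 2.3.3 and numpy 2.4.6.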

Additional observations from a re-analysis of the deposited data

How the results depend on the processing

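No paired analysis was possible because the values used are means pooled over both lines of a table, and the authors' own comparisons were not used, so leaving out a replicate could not be done either and no result comes from a test. With a minimum mean of 50 in place of 10, the number of listed genes counted as present was 6 in the HCT116* 8/3 c7 table, 4 in the RPE1 5/3 12/3 table and 3 in the RPE1* 21/3 table, and 9 in the HCT116 5/4 table. The share of all genes that reached 50 was not computed. The summed level per kb for RPE1 5/3 12/3 was 123 with all tables scaled to the same total, and that for RPE1* 21/3 was 130.9 with this scaling and 122 with the means as deposited. The number of listed genes over 4 times lower in both RPE1 tables was 4 under either of these scalings, because PDE2A and PDE4C passed the limit. With the H2B-GFP tables alone, 1 gene, PDE4D, lay over 4 times higher in RPE1. The log2 ratio of PDE3A was -1.27 with the tables without H2B-GFP and 1.22 with the H2B-GFP tables alone, so it has no stable direction, and the other 8 ratios kept their sign under every alternative tried. Both other scalings moved 1 or 2 of the 9 ratios by more than the difference between tables of a cell type. Without the filter on low means, 31 of 38 percentiles moved by more than that difference. Of the shares in the summed level per kb, 14 moved by more than it with the longest transcript and 24 did not. With no length correction 18 of these shares moved by more and 20 did not. Low means, as of PDE4C, rest on few reads, and the depth of single libraries is unknown.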
